A study of Mus musculus with 40 samples.

Results

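The genes of the vascular endothelial growth factor (VEGF) ligands and receptors were followed in mouse hearts in which cardiomyocytes were made to express interleukin 11 (IL11). The 10 genes were taken by name as the members of the family: the ligands *Vegfa*, *Vegfb*, *Vegfc*, *Vegfd* and *Pgf*, the receptors *Kdr*, *Flt1* and *Flt4*, and the co-receptors *Nrp1* and *Nrp2*. All 10 were listed among the 17646 genes of the male table and the 17223 genes of the female table, and all 10 passed the filter on low values in both. Poly(A) RNA was sequenced with 1 library per mouse, from tissue that the labels give as heart and the study's methods as left ventricle. CM-Il11-Tg mice were heterozygous for the α-MHC-MerCreMer (MCM) transgene, which carries a Cre recombinase released by tamoxifen under a cardiomyocyte promoter, and for *Rosa26-Il11*, from which IL11 is made after recombination. Tamoxifen was given at 20 mg/kg on 5 days from 8 weeks of age, and hearts were taken 1, 3 and 6 weeks later. Control mice were littermates that carried MCM without *Rosa26-Il11*. They also received tamoxifen, and the week of their harvest is not given in the sources used here. Uninduced mice carried both transgenes and received no tamoxifen, at an age that is not given. The *Rosa26-Il11* parents were on C57BL/6N and the MCM parents on C57BL/6J, so the strain background was mixed in every group. There were 4 mice per group and sex, except for 3 male controls and 3 male 6-week hearts.

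VEGF ligands are secreted proteins that act mainly on endothelial cells. *Vegfa*, the main driver of vessel growth and permeability, is made by cardiomyocytes and other cells of the heart, is induced by hypoxia-inducible factors and signals through the receptor kinase VEGFR2, encoded by *Kdr*. *Flt1* encodes VEGFR1, which binds VEGF-A, VEGF-B and placental growth factor tightly and can act as a decoy, while *Flt4* encodes VEGFR3, the receptor of VEGF-C and VEGF-D on lymphatic endothelium. The neuropilins encoded by *Nrp1* and *Nrp2* bind both VEGF ligands and class 3 semaphorins and assist the receptor kinases.

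*Il11* followed the labels in the 38 libraries used. Control hearts held at most 0.147 CPM in males and 0.166 CPM in females, uninduced hearts 16.5 to 23.3 CPM and 15.5 to 49.1 CPM, and induced hearts 336 to 819 CPM and 328 to 614 CPM. Uninduced hearts therefore carried *Il11* RNA above every control, and reads of the native gene and of the transgene cannot be told apart. CPM are counts per 1e6 reads after the authors' scaling, and the libraries held between 16663513 and 65333832 reads on listed genes. The 14 endothelial, 8 cardiomyocyte and 9 fibroblast marker genes were all measured, with cardiomyocyte markers summing to between 31752 and 64007 CPM. In males, 2 further libraries whose title and description name different groups were left out. In females, 5 libraries stood apart from the other 15 on the second principal component, and in males 1 library did, and results that rest on them are given with and without them.

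Per kilobase of exon, the control hearts placed *Vegfa* and *Vegfb* far above the other members. In male controls *Vegfa* stood at 85.5 ± 12.9 CPM per kilobase (SD, n = 3) and *Vegfb* at 69.7 ± 8.59, with overlapping ranges. *Kdr*, at 20.6 ± 3.64, was above *Flt1*, at 11.8 ± 1.26, without overlap. *Nrp1* (6.99 ± 1.55) and *Nrp2* (5.51 ± 1.4) overlapped, as did *Pgf* (2.08 ± 0.384) and *Vegfc* (1.76 ± 0.345) below *Flt4* (2.74 ± 0.268). *Vegfd* was the lowest of the 10, at 0.425 ± 0.0515 CPM per kilobase in males and 0.621 ± 0.0898 (n = 4) in females. In hearts 6 weeks after tamoxifen *Vegfd* stood at 7.95 ± 0.84 CPM per kilobase in males (n = 3) and 12.3 ± 2.57 in females (n = 4), which placed it at rank 5 and rank 3 among the 10 members. The female order in controls began and ended with the same genes, *Vegfa* and *Vegfd*.

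*Vegfd*, which encodes VEGF-D, in mice a ligand of VEGFR3 and not of VEGFR2, rose in every induced group. In male controls it measured 1.05, 1.25 and 1.34 CPM, and in uninduced males 5.42, 3.62, 3.38 and 2.84 CPM. Male hearts measured 18.7, 27.4, 20.9 and 15.3 CPM at 1 week, 22.4, 20.7, 15.1 and 14 CPM at 3 weeks, and 25.4, 21.5 and 21.1 CPM at 6 weeks. All 11 induced male hearts thus lay above all uninduced hearts, and all uninduced hearts above all controls. In females the controls measured 2.02, 1.5, 1.95 and 1.61 CPM and the uninduced hearts 5.28, 4.78, 5.82 and 5.66 CPM. Female hearts reached 21.8, 27.5, 27.9 and 29.7 CPM at 1 week, 31.1, 21.2, 27.1 and 33.1 CPM at 3 weeks, and 30.8, 31.7, 46.2 and 32.1 CPM at 6 weeks. Control, uninduced and induced hearts were separate in females too. Over all genes, 8.16% of male and 5.13% of female genes had all uninduced hearts above all controls.

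**Figure D1:**
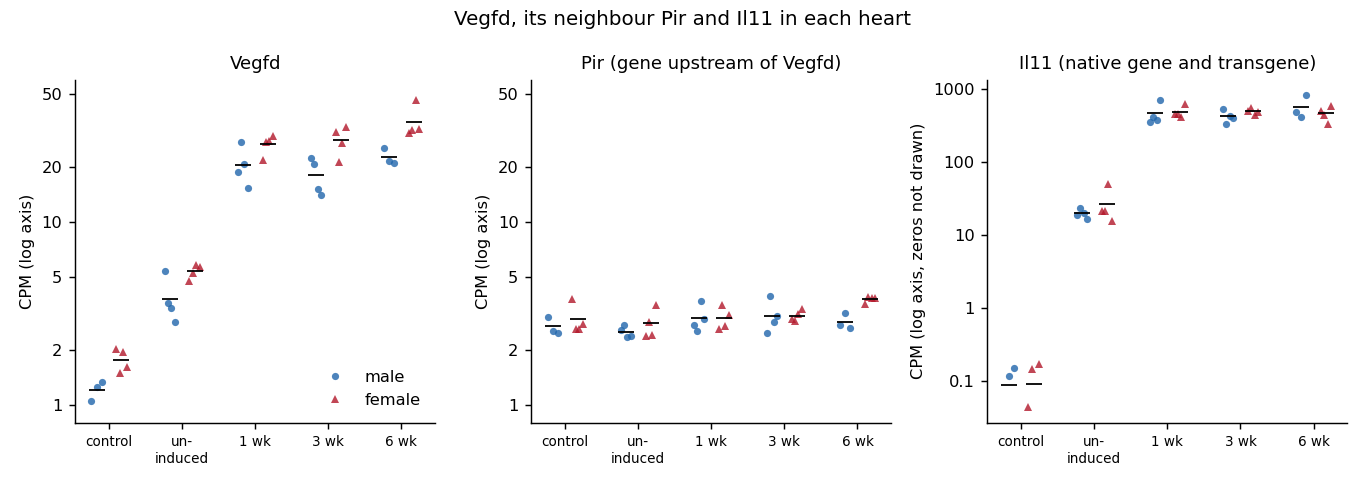
CPM on log axes of *Vegfd*, of its upstream neighbour *Pir* and of *Il11* in control, uninduced and induced hearts at 1, 3 and 6 weeks, with 1 point per heart (blue circles male, red triangles female) and a black dash at the group mean. *Vegfd* lies between 14 and 46.2 CPM in all induced hearts and between 1.05 and 2.02 CPM in all controls, while *Pir* stays between 2.35 and 3.92 CPM in every heart.

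On the log2(CPM + 0.5) scale, on which fold changes of low genes are understated, *Vegfd* was higher than control by 3.60 ± 0.21 (SE) in males at 1 week (adjusted p = 2.34e-10, limma), 3.41 ± 0.21 at 3 weeks (adjusted p = 3.39e-10) and 3.76 ± 0.22 at 6 weeks (adjusted p = 2.45e-10). In females the changes were 3.58 ± 0.15 (adjusted p = 4.41e-13), 3.64 ± 0.15 (adjusted p = 2.88e-13) and 3.96 ± 0.15 (adjusted p = 5.26e-14). The 3 weeks of a sex share their controls. At 6 weeks this is a 13.5-fold difference in males and a 15.6-fold difference in females on that scale. The size depended on the pseudocount and the test, from 2.94 at a pseudocount of 2 to 4.20 with edgeR or DESeq2 in males and from 3.29 at a pseudocount of 2 to 4.33 with DESeq2 in females. With the contradicting male libraries placed by their titles, the male changes at 3 and 6 weeks were 2.43 and 1.93 and not called (adjusted p = 0.0914 and 0.231). At both weeks 0 of the 17008 genes tested in that placement were called. That placement puts a heart with 511 CPM of *Il11* among the controls, whose other hearts held at most 0.147 CPM. It puts a heart with 0.597 CPM among the 6-week hearts. Uninduced hearts exceeded controls by 1.30 ± 0.21 in males (adjusted p = 0.0019) and 1.38 ± 0.15 in females (adjusted p = 8.26e-06). In these comparisons 0.561% of the tested genes were called higher in males and 2.41% in females. Uninduced mice differed from controls in *Rosa26-Il11*, in tamoxifen and perhaps in age, which cannot be told apart here or in later comparisons with uninduced hearts. Induced and uninduced mice likewise differed in tamoxifen and perhaps in age. The male difference between uninduced hearts and controls lost its call when either replicate 1 or replicate 3 of each group was left out, at 1.07 (adjusted p = 0.0835) and 1.36 (adjusted p = 0.0947). Hearts at 6 weeks exceeded uninduced hearts by 2.45 ± 0.21 in males (adjusted p = 8.59e-08) and 2.58 ± 0.15 in females (adjusted p = 2.57e-10). Between 1 and 6 weeks *Vegfd* differed by 0.16 in males (95% interval -0.27 to 0.59) and by 0.38 in females (0.07 to 0.68), neither called (adjusted p = 0.731 and 0.281).

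*Vegfd* lies on the plus strand of chrX:163156240-163185646 (GRCm39). The gene *Pir*, on the same strand, ends 231 bases before the start of *Vegfd*, so reads running past its end would enter *Vegfd*. *Pir* measured 2.49 to 3.04 CPM in male controls and 2.47 to 3.92 CPM in induced males, and it was called in none of the comparisons with control. Its change at 6 weeks was 0.07 in males and 0.33 in females (adjusted p = 0.781 and 0.052). Against uninduced hearts, *Pir* was higher by 0.39 in females at 6 weeks (adjusted p = 0.0387). The sequence between the genes is shown because it holds what lies directly upstream of the member that rose. Capitals mark ACGTG, a form of the core of hypoxia-inducible factor sites, read on both strands. The other form, GCGTG, was not searched for.
Vegfd, chrX:163156009-163156239, plus strand: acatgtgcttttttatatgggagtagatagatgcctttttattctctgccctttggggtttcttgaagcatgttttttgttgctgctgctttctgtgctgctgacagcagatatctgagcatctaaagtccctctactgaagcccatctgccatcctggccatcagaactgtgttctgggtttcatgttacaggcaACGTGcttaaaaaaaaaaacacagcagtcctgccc
ACGTG lies 35 to 31 bases before the start, and 17% of the 21770 promoter windows of 250 bases searched hold it on either strand. Among the members, the windows of *Vegfb*, *Pgf* and *Nrp1*, none of which was called higher, also hold it. The *Vegfd* window holds neither TTCNNNGAA, the pattern of STAT factors (7.7% of windows), nor TGANTCA, the pattern of AP-1 factors (6.17%). These matches are letters only, and binding was not measured.

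Many marker genes of fibroblasts, macrophages and lymphatic vessels were called higher in the induced hearts, in which *Vegfd* rose. In uninduced hearts, where *Vegfd* was also higher, the median change of the lymphatic list was 0.01 in males and 0.02 in females. It was 0.69 and 0.35 for the fibroblast list and 0.54 and 0.89 for the macrophage list. By calls, 1 of the 6 lymphatic and 1 of the 9 fibroblast markers were higher in uninduced hearts of each sex. Of the 7 macrophage markers, 0 were called higher there in males and 5 in females. Of the 9 fibroblast markers, 8 or 9 were called higher in males and 8 in females at each week, and their summed level ran from 765 to 1210 CPM in male controls, 1343 to 2083 CPM in uninduced males and 4869 to 10354 CPM in induced males. In females it ran from 917 to 1217, 1475 to 1950 and 5133 to 12577 CPM. All 7 macrophage markers were called higher at each week in both sexes, with sums of 85.8 to 158 CPM in male controls, 136 to 197 CPM in uninduced males and 337 to 510 CPM in induced males. The female macrophage sums were 86.9 to 111, 157 to 217 and 365 to 531 CPM. Of the 6 lymphatic markers, 3 or 4 were called higher at each week. *Prox1*, a transcription factor on this list, was called lower in males (-0.52 at 6 weeks, adjusted p = 0.0195) and not called in females (-0.06, adjusted p = 0.865). Whether its reads came from lymphatic endothelium was not tested. The lymphatic rise was in *Pdpn*, which activated fibroblasts also express (3.48 in males and 3.53 in females at 6 weeks), *Ccl21a* (2.09 and 1.46), *Lyve1*, which macrophages also express (1.16 and 0.83), and *Mmrn1* (0.85 and 0.89). The lymphatic sums were 73.2 to 94.3 CPM in male controls, 80.4 to 101 CPM in uninduced males and 140 to 234 CPM in induced males, and 79.5 to 111, 91.7 to 119 and 157 to 228 CPM in females. None of these markers was at 0 throughout, and their part in the change of *Vegfd* was not tested. In whole tissue, more or fewer cells of a type and more or less RNA per cell cannot be told apart, for this and every result that follows.

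*Vegfa* (chr17:46327919-46343309, minus strand) was lower than control at 1 and 6 weeks in males and at 6 weeks in females. Male controls measured 430, 324 and 349 CPM, and male hearts 235, 176, 212 and 259 CPM at 1 week, 340, 249, 285 and 252 CPM at 3 weeks, and 265, 213 and 286 CPM at 6 weeks. All but 1 of the 11 induced males lay below the lowest control, the exception being a 3-week heart. Male *Vegfa* changed by -0.74 ± 0.15 at 1 week (adjusted p = 0.000844), -0.39 ± 0.15 at 3 weeks (adjusted p = 0.073, not called) and -0.53 ± 0.16 at 6 weeks (adjusted p = 0.0186). The 6-week call was lost when replicate 1 was left out (-0.45, adjusted p = 0.104) and when replicate 3 was left out (-0.49, adjusted p = 0.139), and with only the compared groups in the fit (-0.53, adjusted p = 0.0685).

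Female controls measured 397, 312, 295 and 301 CPM of *Vegfa*, and uninduced females 344, 401, 252 and 155 CPM. Female hearts measured 255, 120, 245 and 226 CPM at 1 week, 212, 225, 197 and 236 CPM at 3 weeks, and 250, 97.8, 101 and 110 CPM at 6 weeks. All 12 induced females lay below all 4 controls. The change was -0.67 ± 0.29 at 1 week (adjusted p = 0.0903) and -0.58 ± 0.29 at 3 weeks (adjusted p = 0.141), neither called, and -1.33 ± 0.29 at 6 weeks (adjusted p = 0.00103). The 5 lowest female values, 97.8 to 155 CPM, were those of the 5 libraries that stood apart, against 197 to 401 CPM in the other 15. Those 5 libraries held 236 to 330 CPM of *Malat1* and 98.8 to 244 CPM of *Neat1*, long RNAs kept in the nucleus, against 565 to 1240 CPM and 443 to 1510 CPM in the others. Without the 5 libraries, which leaves 1 heart at 6 weeks, the changes were -0.42 at 1 week (adjusted p = 0.0303), -0.58 at 3 weeks (adjusted p = 0.00217) and -0.37 at 6 weeks (adjusted p = 0.218), a single heart assumed to vary like the other groups. The part of these libraries in the change of *Vegfa* was not tested further.

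**Figure D2:**
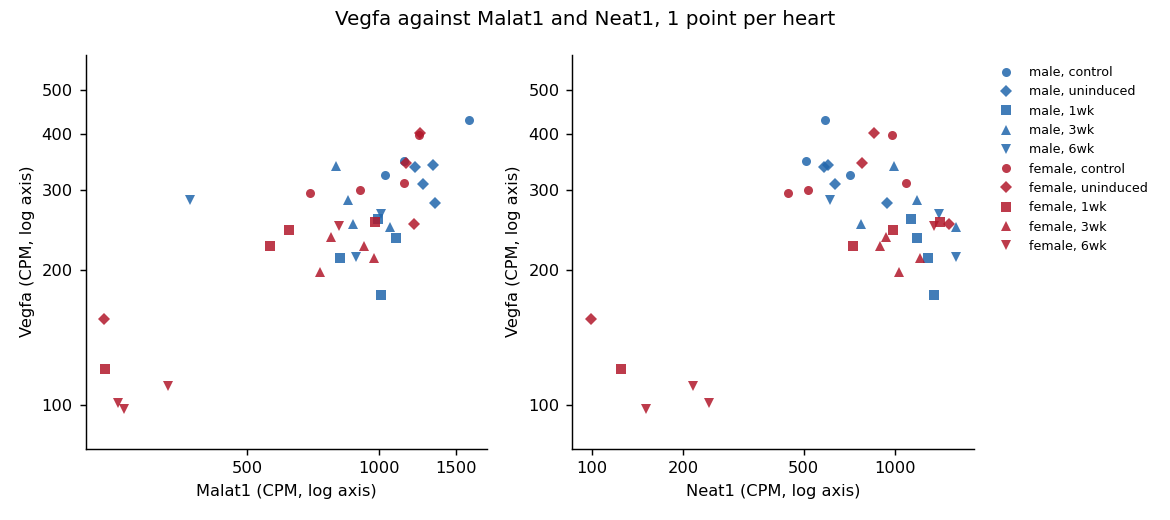
*Vegfa* against *Malat1* (left) and *Neat1* (right) in CPM on log axes, with 1 point per heart, colour for sex and shape for group. In the lower left of each panel lie 5 female hearts (1 uninduced, 1 at 1 week and 3 at 6 weeks) with *Vegfa* of 97.8 to 155 CPM, below every other heart, and *Malat1* of at most 330 CPM.

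*Vegfb* (chr19:6958447-6965127, minus strand), a ligand of VEGFR1 that is abundant in heart muscle, was lower in females at all 3 weeks. Female controls measured 220, 252, 242 and 232 CPM, and the 12 induced females 144 to 177 CPM, with a median of 159 CPM and no overlap. The changes were -0.59 ± 0.10 (adjusted p = 0.000153), -0.51 ± 0.10 (adjusted p = 0.000517) and -0.60 ± 0.10 (adjusted p = 6.97e-05) at 1, 3 and 6 weeks. In males the controls measured 249, 237 and 195 CPM and the 11 induced hearts 147 to 277 CPM, with a median of 169 CPM. Male changes were -0.37 ± 0.16 (adjusted p = 0.0748), -0.44 ± 0.16 (adjusted p = 0.0508) and -0.19 ± 0.17 (adjusted p = 0.442), none called. The male 6-week heart with 277 CPM is the library that stood apart in that sex, with *Malat1* at 371 CPM against 796 to 1600 CPM in the other 17 males. Without it the male changes were called at all weeks, at -0.37 (adjusted p = 0.0154), -0.44 (adjusted p = 0.00763) and -0.43 (adjusted p = 0.0276). Summed cardiomyocyte markers ran from 53734 to 64007 CPM in male controls and 33912 to 55373 CPM in induced males, and from 37717 to 55607 and 31752 to 46276 CPM in females, and 2 to 4 of the 8 were called lower at each week and sex. The part of cardiomyocyte RNA in the changes of *Vegfa* and *Vegfb* was not tested.

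The other ligands were low and did not pass the test against control at any week. *Vegfc* (chr8:54530257-54640131, plus strand), the main growth factor of lymphatic vessels, measured 4.16 to 6.11 CPM in male controls and 2.12 to 6.51 CPM in induced males, and 3.53 to 7.3 and 3.55 to 6.4 CPM in females. Its 6-week changes were -0.40 in males (95% interval -0.98 to 0.17) and 0.12 in females (-0.28 to 0.52). *Pgf* (chr12:85213409-85224564, minus strand), which encodes placental growth factor, measured 4.92 to 7.16 CPM in male controls and 4.37 to 8.02 CPM in induced males. Its 6-week changes were -0.05 in males (-0.51 to 0.40) and -0.51 in females (-1.01 to -0.01, adjusted p = 0.0893). The ranges of control and induced hearts overlapped for both genes in both sexes. Without replicate 3, *Pgf* in females passed the test at 6 weeks (-0.73, adjusted p = 0.02).

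*Kdr* (chr5:76093487-76139884, minus strand), which encodes VEGFR2, the receptor that carries most of the VEGF-A signal in endothelium, was lower at every week in both sexes. Male controls measured 154, 194 and 221 CPM, and male hearts 98.2, 84.1, 106 and 99.6 CPM at 1 week, 122, 136, 84.4 and 83.9 CPM at 3 weeks, and 129, 66.6 and 64.9 CPM at 6 weeks. Female controls measured 142, 124, 190 and 159 CPM, and female hearts 94.5, 95.6, 87.1 and 107 CPM at 1 week, 86.5, 64.5, 67.7 and 71.7 CPM at 3 weeks, and 78.0, 79.0, 119 and 77.9 CPM at 6 weeks. All 11 induced males and all 12 induced females lay below the lowest control of their sex. Uninduced hearts, at 126 to 183 CPM in males and 105 to 229 CPM in females, overlapped with both controls and induced hearts.

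*Kdr* changed against control by -0.95 ± 0.22 (adjusted p = 0.00272), -0.85 ± 0.22 (adjusted p = 0.00901) and -1.18 ± 0.24 (adjusted p = 0.000915) in males at 1, 3 and 6 weeks. In females it changed by -0.66 ± 0.19 (adjusted p = 0.0107), -1.07 ± 0.19 (adjusted p = 0.000156) and -0.80 ± 0.19 (adjusted p = 0.00175). Hearts at 6 weeks were also below uninduced hearts, by -0.88 ± 0.22 in males (adjusted p = 0.00769) and -0.83 ± 0.19 in females (adjusted p = 0.00242), whereas uninduced hearts were not called against control (-0.30 and 0.03, adjusted p = 0.683 and 0.954). Leaving out replicates 3 or 4 left the male 3-week change uncalled (-0.72 and -0.63, adjusted p = 0.119 and 0.0899), and likewise the male difference between 6-week and uninduced hearts (-0.65 and -0.63, adjusted p = 0.132 and 0.125). Leaving out replicates 1 or 4 did so for the female 1-week change (-0.69 in each case, adjusted p = 0.0503 and 0.0507). The 250 bases before the canonical start of *Kdr*, which an upstream exon of another *Kdr* transcript precedes, are shown as the counterpart of the *Vegfd* sequence for the member that fell most often.
Kdr, chr5:76139119-76139368, minus strand: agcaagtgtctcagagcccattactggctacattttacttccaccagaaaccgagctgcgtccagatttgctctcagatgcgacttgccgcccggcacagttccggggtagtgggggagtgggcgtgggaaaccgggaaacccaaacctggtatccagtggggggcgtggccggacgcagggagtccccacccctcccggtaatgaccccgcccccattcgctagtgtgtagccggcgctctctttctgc
None of the 3 patterns searched was found there. GCGTG, the form of the hypoxia-inducible factor core that was not searched for, does occur in this sequence.

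The median change of other endothelial transcripts was smaller than that of *Kdr*, at -0.12 in males and -0.27 in females at 6 weeks. Of the 14 endothelial markers, a list without VEGF receptors, 3 or 4 were called lower in males and 6 or 7 in females at each week, and 1, *Ecscr*, was called higher. *Cdh5*, which encodes the junction protein VE-cadherin, changed by -0.63 in males and -0.65 in females at 6 weeks (adjusted p = 0.0134 and 0.000369), and *Tie1*, an endothelial receptor kinase, by -0.51 and -0.81 (adjusted p = 0.0155 and 3.44e-08), in females as much as *Kdr*. At 1 week *Kdr* changed by -0.95 in males and -0.66 in females, where the medians of the list were -0.28 and -0.39. *Cdh5* then changed by -0.99 in males and -0.63 in females, and *Tie1* by -0.44 and -0.84. The summed level of the 14 markers ran from 1098 to 1282 CPM in male controls and 808 to 1321 CPM in induced males. In females it ran from 1139 to 1229 CPM in controls and 795 to 1005 CPM in induced hearts. The log2 value of *Kdr* exceeded the mean log2 value of the list by 1.73 ± 0.29 in male controls (SD, n = 3) and 1.65 ± 0.20 in uninduced males (n = 4), and by 0.97 ± 0.10, 1.01 ± 0.24 and 0.67 ± 0.58 at 1, 3 and 6 weeks. In females it was 1.38 ± 0.22 in controls, 1.46 ± 0.50 in uninduced hearts, and 1.09 ± 0.12, 0.64 ± 0.13 and 0.83 ± 0.28 at the 3 weeks. The induced males lay between 0.07 and 1.34 on this scale and the male controls between 1.40 and 1.93. The induced females lay between 0.53 and 1.22 and the female controls between 1.12 and 1.66, so that the female ranges overlapped at 1 and 6 weeks. These differences are a description with no test.

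**Figure D3:**
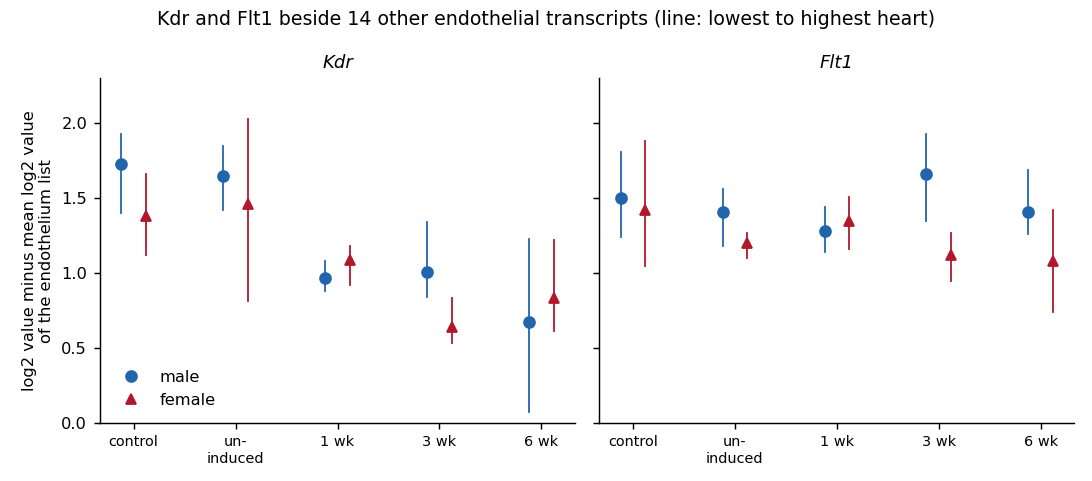
The log2 value of *Kdr* (left) and *Flt1* (right) minus the mean log2 value of 14 endothelial markers, by group and sex, with points at the group mean and lines from the lowest to the highest heart. For *Kdr* the male mean falls from 1.73 in controls to 0.67 at 6 weeks and the female mean from 1.38 to 0.83, while for *Flt1* they go from 1.50 to 1.41 and from 1.42 to 1.08.

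*Flt1* (chr5:147498414-147662826, minus strand), whose gene-level values do not separate the membrane receptor from its soluble form, was lower in females at all weeks. Female controls measured 203, 173, 135 and 127 CPM, and female hearts 109, 115, 131 and 107 CPM at 1 week, 117, 89.5, 91.0 and 109 CPM at 3 weeks, and 95.4, 86.6, 136 and 101 CPM at 6 weeks. Only the 3-week hearts lay wholly below the controls. The changes were -0.44 ± 0.14 (adjusted p = 0.0237), -0.63 ± 0.14 (adjusted p = 0.00192) and -0.60 ± 0.14 (adjusted p = 0.00215). Male controls measured 161, 178 and 144 CPM, and male hearts 136, 100, 114 and 133 CPM at 1 week, 162, 136, 181 and 177 CPM at 3 weeks, and 133, 132 and 148 CPM at 6 weeks. Uninduced hearts, without tamoxifen, measured 118 to 141 CPM in males, against 144 to 178 CPM in male controls. In females they measured 127 to 134 CPM, against 127 to 203 CPM in controls. *Flt1* was not called between uninduced hearts and controls in either sex. Male *Flt1* was called lower at 1 week (-0.42 ± 0.13, adjusted p = 0.0155) and not at 3 weeks (0.03 ± 0.13, adjusted p = 0.912) or 6 weeks (-0.22 ± 0.14, adjusted p = 0.245). The 1-week call was lost without replicate 2 (-0.33, adjusted p = 0.0547) or 3 (-0.32, adjusted p = 0.203) in males, and without replicate 1 (-0.29, adjusted p = 0.209) or 2 (-0.40, adjusted p = 0.131) in females, whose 6-week call was also lost without replicate 2 (-0.47, adjusted p = 0.0512). At 3 weeks the female change minus the male change was -0.66 ± 0.20, which was not called (adjusted p = 0.513, limma).

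*Flt4* (chr11:49500090-49543582, plus strand), the receptor that binds the *Vegfd* product, was not called higher at any week. It measured 20.2 to 24.5 CPM in male controls and 15.8 to 24.8 CPM in induced males, and 20.5 to 27.7 and 14.6 to 27.3 CPM in females. It was called lower at 1 week in males (-0.35 ± 0.13, adjusted p = 0.0446), a call lost without replicate 2, 3 or 4 (adjusted p = 0.145, 0.194 and 0.116). The 6-week changes were -0.23 (95% interval -0.52 to 0.06) in males and -0.34 (-0.68 to 0.00) in females, so that an increase of more than 0.06 on the log2 scale lay outside both intervals. Without replicate 3 the female 6-week change was called lower (-0.51, adjusted p = 0.0171).

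Of the co-receptors, *Nrp2* (chr1:62742444-62857854, plus strand), which partners VEGFR3 on lymphatic and venous endothelium, was lower at 1 and 3 weeks. Male controls measured 59.3, 54.0 and 85.5 CPM, against 51.5, 37.8, 51.7 and 41.7 CPM at 1 week, 56.2, 49.1, 41.6 and 40.9 CPM at 3 weeks and 49.9, 51.2 and 43.7 CPM at 6 weeks. Female controls measured 50.9, 51.9, 66.1 and 61.0 CPM, against 38.1, 47.9, 40.7 and 41.8 CPM, 47.2, 31.3, 40.4 and 44.3 CPM, and 38.6, 42.1, 69.0 and 40.5 CPM. The male 3-week hearts and the female 6-week hearts each had 1 library inside the range of the controls or above it, and the other groups did not overlap with control. *Nrp2* changed by -0.52 ± 0.16 and -0.48 ± 0.16 in males (adjusted p = 0.0171 and 0.0374) and -0.44 ± 0.16 and -0.50 ± 0.16 in females (adjusted p = 0.0393 and 0.0192) at 1 and 3 weeks, and by -0.43 and -0.30 at 6 weeks (adjusted p = 0.0686 and 0.12). Each of these 4 calls was lost when some replicates were left out, with changes of -0.22 to -0.55 and the highest adjusted p at 0.346. *Nrp1* (chr8:129085085-129231082, plus strand), the partner of VEGFR2, was not called in any comparison, with 6-week changes of -0.24 in males (95% interval -0.58 to 0.10) and 0.02 in females (-0.32 to 0.37).

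**Figure D4:**
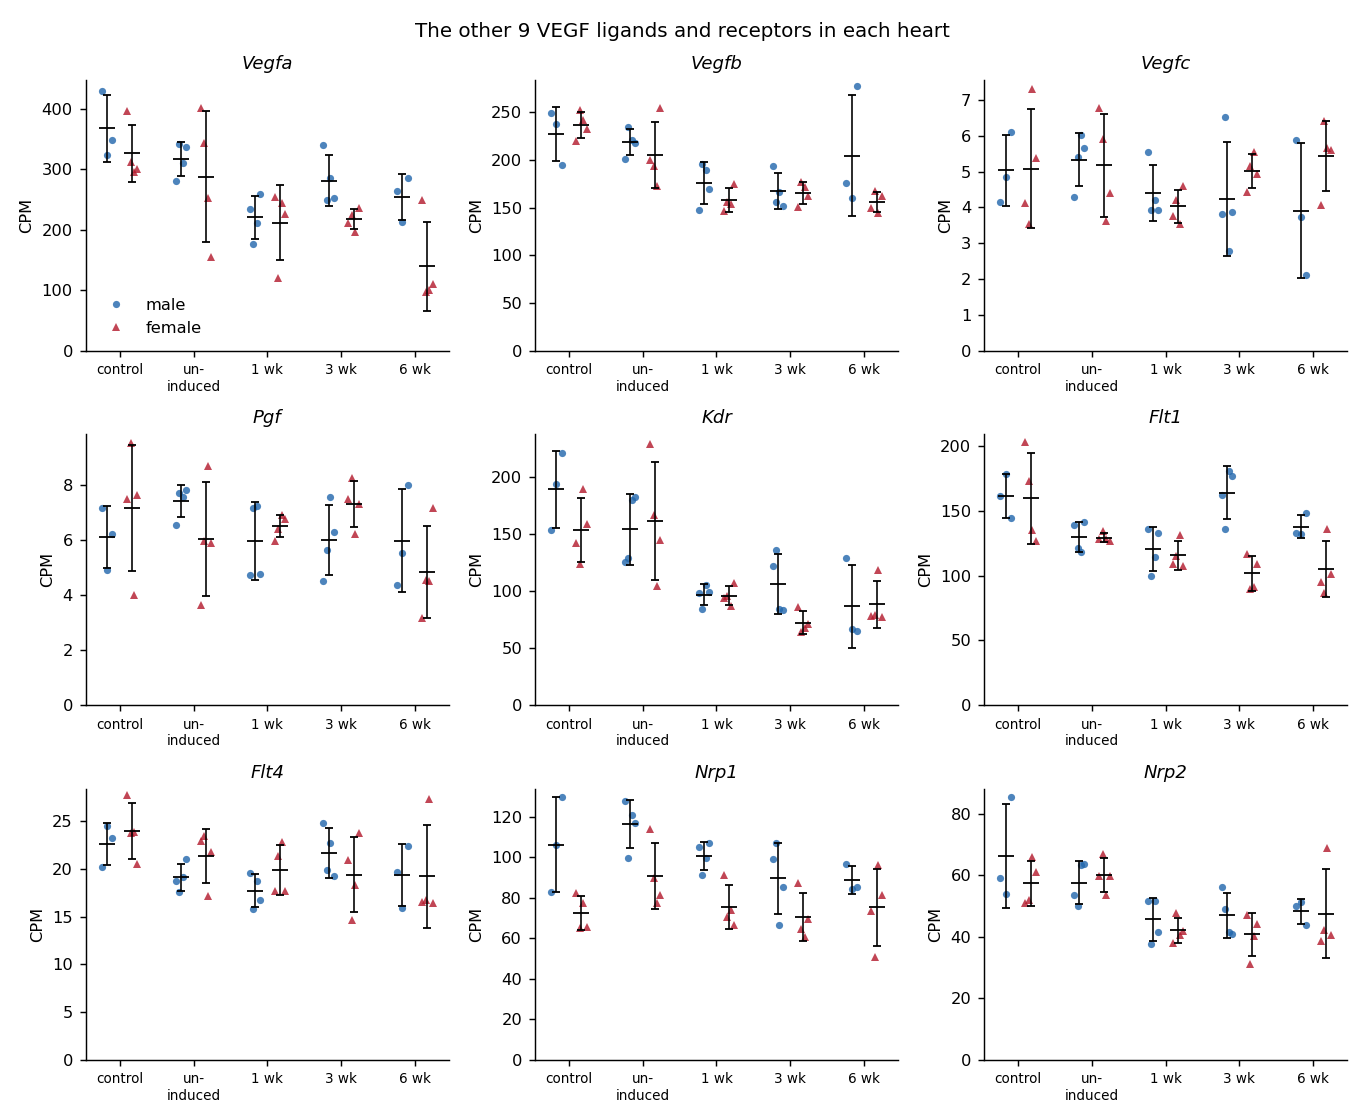
CPM of the 9 members other than *Vegfd* by group, with 1 point per heart (blue circles male, red triangles female) and black bars at the mean ± SD of each sex. *Kdr* lies below the lowest control of its sex in every induced heart, at 64.5 to 136 CPM, whereas for *Pgf*, *Vegfc* and *Nrp1* every group overlaps with the controls of its sex.

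Counted over the 10 members, 1 (*Vegfd*) was called higher and 5 lower in males at 1 week, 1 and 2 at 3 weeks, and 1 and 2 at 6 weeks. In these comparisons 18.9%, 13.2% and 16.2% of all tested male genes were called higher and 14.6%, 8.1% and 10.9% lower. In females 1 was called higher and 4 lower at each of the 3 weeks, where 15.3%, 16.8% and 21.7% of the tested genes were called higher and 13.1%, 14.5% and 21% lower. All hearts of a week lay above all controls for *Vegfd* alone, where this held for 22%, 18.4% and 20.4% of male and 16.5%, 18.9% and 19.5% of female genes. All hearts of a week lay below all controls for 5, 2 and 3 members in males, against 18.9%, 14.7% and 17.3% of all genes, and for 4, 5 and 3 members in females, against 16.2%, 18.6% and 17.9%. The median change of the members at 6 weeks was -0.24 in males and -0.43 in females, where the median of all genes was -0.01 and -0.02. The comparisons of a sex share their controls.

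**Figure D5:**
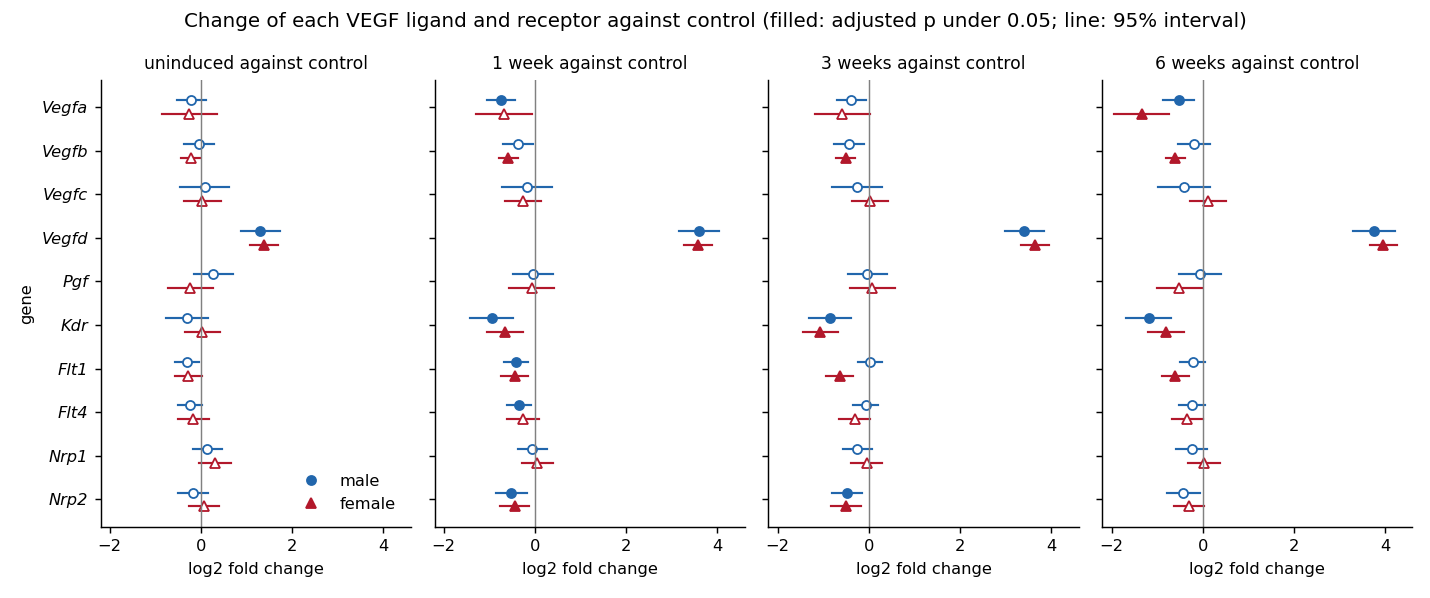
Log2 fold change against control (on log2(CPM + 0.5)) of each member in uninduced hearts and at 1, 3 and 6 weeks, with 95% intervals, blue circles for males, red triangles for females and filled points at an adjusted p under 0.05. *Vegfd* stands alone on the right in every panel, at 1.30 and 1.38 in uninduced hearts and 3.41 to 3.96 after induction, and *Kdr* is filled on the left in both sexes at every week.

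Without tamoxifen, *Vegfd* was the only member called against control in either sex, where 0.597% of male and 2.87% of female genes were called in either direction. Against uninduced hearts, *Vegfd* was called higher and *Kdr* lower at 6 weeks in both sexes, and in females *Vegfa* (-1.08 ± 0.29, adjusted p = 0.01) and *Vegfb* (-0.38 ± 0.10, adjusted p = 0.00807) were also called lower, with 20.4% of male and 22.8% of female genes called. Without the 5 female libraries *Vegfd* alone was called there in females (*Kdr* -1.02, adjusted p = 0.0661). Without the male library that stood apart, *Kdr* measured -0.71 in males (adjusted p = 0.0533). Between 1 and 6 weeks limma called 0 members in either sex, where it called 0.165% of male and 1.03% of female genes. At an unadjusted p under 0.05 the counts were 0 in males and 2 in females (*Vegfa* and *Vegfd*), and edgeR and DESeq2 also called 0. Of all genes, edgeR called 19 in males and 152 in females there, and DESeq2 207 and 305. The change against control differed between the sexes for 0 members at each week by limma, edgeR and DESeq2. Over all genes limma and edgeR called 0 at each week, and DESeq2 called 504, 16 and 95 of 16621 at 1, 3 and 6 weeks. By limma, 0, 1 and 2 members had an unadjusted p under 0.05 at 1, 3 and 6 weeks. The 2 at 6 weeks were *Vegfa* (-0.80 ± 0.37, female minus male, adjusted p = 0.257) and *Vegfb* (-0.42 ± 0.19, adjusted p = 0.258).

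Genes around the family were called in both directions, as were all genes in the shares given above, and the counts are a description of each list. Of 8 genes of hypoxia-inducible factors and their regulators, *Hif1a* was called higher in both sexes at all weeks (0.61 in males and 1.13 in females at 6 weeks, adjusted p = 0.0158 and 2.06e-06). *Epas1*, which encodes another such factor, was called lower at 1 week (-0.74 in males and -0.55 in females, adjusted p = 0.00139 and 0.00105, limma). *Egln3*, a hydroxylase that marks the factors for decay and is itself one of their targets, was called lower throughout (-1.42 and -1.13 at 6 weeks, adjusted p = 0.000174 and 2.7e-05). In all, 1 of the 8 was called higher and 1 to 3 lower at each week and sex. Of 23 genes of VEGF receptor signalling, 1 or 2 were called higher and 3 to 7 lower in males, and 1 to 5 higher and 6 to 8 lower in females, with list medians between -0.18 and -0.08 against medians of all genes between -0.02 and 0.02. *Src*, a kinase downstream of many receptors, was higher at 6 weeks (1.08 and 1.26, adjusted p = 0.000191 and 1.98e-06) and *Plcg1*, the phospholipase that docks to VEGFR2, was lower (-0.49 and -0.94, adjusted p = 0.00104 and 3.45e-06). *Nos3*, the endothelial nitric oxide synthase, was lower in females at 6 weeks (-0.90, adjusted p = 3.94e-07) and measured -0.41 in males (adjusted p = 0.0624).

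Among 11 genes that endothelium is known to induce in response to VEGF, 2 to 5 were called lower and 0 to 2 higher at each week and sex. *Apln*, a peptide of sprouting tip cells, fell by 2.04 on the log2 scale in males (adjusted p = 1.02e-06) and by 1.08 in females (adjusted p = 0.00111) at 6 weeks. *Dll4*, the Notch ligand of tip cells, was lower in females (-0.78, adjusted p = 4.44e-05) and measured -0.42 in males (adjusted p = 0.136). *Adm* and *Rcan1* were the 2 called higher in females at 6 weeks (0.91 and 1.33, adjusted p = 0.0163 and 0.0172). At 1 week *Rcan1* was called higher in males and females (1.43 and 1.29, adjusted p = 0.0179 and 0.0287, limma). *Esm1* was called higher at 1 week in males (0.71, adjusted p = 0.0493, limma). At that week 4 genes of the list were called lower in males and 5 in females. Among the 12 class 3 semaphorins and plexins, the other ligands and partners of the neuropilins, 11 passed the filter in males and 12 in females, and 2 to 4 were called higher and 1 to 5 lower. *Sema3a*, a ligand of NRP1, rose by 1.36 in males and 1.54 in females at 6 weeks (adjusted p = 0.000173 and 2.4e-06), and *Sema3d* by 0.99 and 1.54 (adjusted p = 0.00831 and 1.91e-05). *Plxnd1*, an endothelial semaphorin receptor, was lower (-0.62 and -0.79, adjusted p = 0.00557 and 0.000215). Of the 3 genes listed for a part in the processing of VEGF-C to its active form, *Adamts3* was called lower in males at all weeks (-0.48 at 6 weeks, adjusted p = 0.0312) and not in females (-0.44, adjusted p = 0.11). *Ccbe1* was called higher in females at 3 weeks alone (0.58, adjusted p = 0.041).

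The genes whose levels ran most like those of a member are given as a description over the 18 male and 20 female libraries, which share the groups of the design. For *Vegfd* these were the complement genes *Cfi* (Pearson r of 0.98 in males and 0.99 in females) and *C1ra* (0.98 and 0.99), and *Cd302* (0.98 and 0.98). For *Kdr* they were *Rasgrp3*, an exchange factor for Ras (0.92 and 0.96), *Efnb2*, the ephrin of arterial endothelium (0.91 and 0.91), and *Rflnb* (0.88 and 0.92). For *Vegfa* they were *Pde4c* (0.91 and 0.90), *Map4k2* (0.87 and 0.89) and *Rasgrp2* (0.85 and 0.90). For *Nrp2* they included *Cd93* (0.92 and 0.88), a surface protein of endothelium, and for *Pgf* the clock genes *Dbp* (0.73 and 0.84) and *Per3* (0.63 and 0.74). For *Vegfc* and *Nrp1* the closest genes reached only 0.80 and 0.69 (*Gem*) and 0.78 and 0.68 (*Afdn*).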

How the data were processed

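RNA-seq of mouse hearts gave 1 deposited table per sex, with 20 libraries each. The authors aligned reads with STAR to GRCm39, counted them per gene with featureCounts (build and counter are also named in the submitters' processing notes), and scaled them with edgeR to values they call CPM. These deposited signal values do not sum to 1e6 per library (817395 to 1196278), so they hold a normalization of library size. Low-count genes had been removed by the authors by a rule not given in the sources used here, and the strand setting of the counting is not given either. Exons of antisense genes overlap those of *Vegfa*, *Vegfc*, *Flt4*, *Nrp1* and *Nrp2*, whose reads may be shared.

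The members and the gene lists were chosen with earlier results of these data known. Libraries were grouped by their labels, and 2 male libraries with contradicting labels were left out. Values were tested with limma 3.58.1 in R 4.3.3 on log2(CPM + 0.5), with genes kept at 0.5 CPM in at least 3 libraries (16931 genes in males, 16956 in females), all groups of a sex in 1 fit and Benjamini-Hochberg adjustment over all genes. A gene was called at an adjusted p under 0.05. Errors of changes are SE, and libraries are separate mice. Whole reads were recovered from 100% of 697380 values (tolerance 0.001), and edgeR 4.0.16 and DESeq2 1.42.0 were run on them as alternatives. At 6 weeks the edgeR test called 4666 genes in males and 7068 in females. Other alternatives changed the pseudocount, the filter, the scaling and the groups in the fit, left out each replicate, blocked on replicate number, placed the contradicting libraries, and, added after seeing the data, left out libraries that stood apart. Libraries with the same replicate number did not deviate together (mean r = 0.0132 in males and 0.0255 in females), so the numbers were not taken as pairs. No libraries agreed within counting noise (lowest chi-square per gene 7.08 over 54 replicate pairs). The test was checked on simulated data. Of each pathway and marker list, the up to 3 genes with the lowest adjusted p at 6 weeks were named, and for likeness the 3 genes with the highest smaller r of both sexes were ranked. *Adm*, *Rcan1*, *Esm1*, *Prox1*, *Mmrn1* and *Epas1* were named after their values were seen. Levels per kilobase divide CPM by the merged exon length of GENCODE vM39, from which positions and sequences on GRCm39 also come.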

Additional observations from a re-analysis of the deposited data

Results flagged for a closer look

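The 10 members and *Il11* were examined in each group of 4 hearts, which gave 88 combinations of a gene and a group. In 8 of the 88 the highest heart stood far from the other 3 by Dixon's criterion. For independent sets chance gives about 1 in 20, but these combinations share hearts, so the count cannot be set against that rate. Among female 6-week hearts, replicate 3 stood above the others for *Vegfd* (46.2 CPM), *Kdr* (119 CPM), *Flt4* (27.3 CPM) and *Nrp2* (69.0 CPM). In the same group replicate 1 stood above for *Vegfa*, at 250 CPM, the other 3 hearts being libraries that stood apart on the second principal component. The highest female control for *Vegfa*, at 397 CPM, the highest uninduced female for *Flt1*, at 134 CPM, and the highest male 1-week heart for *Il11*, at 712 CPM, were the other cases.

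The pair of male libraries that were left out held *Il11* above the highest male control, 0.147 CPM. The library titled 6 weeks and described as a control held 0.597 CPM, and the library titled control and described as 6 weeks held 511 CPM.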

How the results depend on the processing

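In these comparisons no change of a member turned its direction in a called result under any alternative run. The count of members called against control moved by over 1.5 times as follows. In males at 3 weeks DESeq2 called 5 members (4077 of 16917 genes) where limma called 3 (3610 of 16931 genes). Placing the contradicting male libraries by their titles gave 0 members at 3 weeks, 0 at 6 weeks, 0 for uninduced hearts and 0 for 6 weeks against uninduced hearts, and placing them by their descriptions gave 4 for the last. Over all 17008 genes, placement by titles called 0 at 3 weeks, 0 at 6 weeks and 1 for uninduced hearts. It called 4 genes for 6 weeks against uninduced hearts, where placement by descriptions called 4012. Placement by titles puts the heart with 511 CPM of *Il11* among the controls and the heart with 0.597 CPM among the 6-week hearts. Without the male library that stood apart, 6 weeks against uninduced hearts gave 1. In females, without the 5 libraries that stood apart, uninduced hearts gave 2 (*Vegfd* higher and *Vegfb* lower) and 6 weeks against uninduced hearts gave 1, and 2 with only those groups in the fit. Leaving out each replicate in turn gave 3 to 6 members at 1 week, 1 to 3 at 3 weeks, 2 to 4 at 6 weeks, 0 to 1 for uninduced hearts (0 without replicate 1 or 3) and 1 to 3 for 6 weeks against uninduced hearts in males. In females it gave 2 to 4, 4 to 5, 4 to 8 (8 without replicate 3) and, for 6 weeks against uninduced hearts, 3 to 6. Without replicate 3, 5729 of 16764 genes were called in females at 6 weeks against control. With a replicate block, males gave 5, 2 and 3 members and females 5, 5 and 5 at 1, 3 and 6 weeks, *Flt4* at 1 week and *Nrp2* at 3 weeks losing their calls in males (-0.31 and -0.43, adjusted p = 0.0977 and 0.0841). The cause of these moves was not tested. With 3 or 4 hearts per group, changes of low genes such as *Pgf* and *Vegfc* had 95% intervals about 1 log2 unit wide.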

Other observations

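The male library titled 6 weeks and described as a control held 1.71 CPM of *Vegfd*, 146 CPM of *Kdr*, 318 CPM of *Vegfa* and 252 CPM of *Vegfb*. The male library titled control and described as 6 weeks held 25.7 CPM of *Vegfd*, 78.4 CPM of *Kdr*, 208 CPM of *Vegfa* and 187 CPM of *Vegfb*. Neither entered a comparison.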
